A study of Mus musculus with 4 samples.

Results

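Genes of blood vessels and of haemoglobin were examined in RNA from the lateral habenula of the mouse. The set holds 10 genes chosen by name out of 53465 gene identifiers in the count matrix: the adult haemoglobin genes Hba-a1, Hba-a2, Hbb-bs and Hbb-bt, the endothelial genes Cldn5, Pecam1 and Flt1, the pericyte gene Pdgfrb, and the smooth muscle genes Acta2 and Tagln. The rule of membership is a list of names, drawn up with earlier results of these data known, and all 10 had enough counts to be tested. The lateral habenula is a small epithalamic nucleus that sends output to midbrain monoamine neurons, and it lies beside the third ventricle and its choroid plexus. Tissue came from C57BL/6 mice kept in groups (2 libraries) or socially isolated (2 libraries), and the title of the series names the isolation as acute. The labels give no length of isolation, age, sex or genetic modification, and they do not say whether a library is 1 animal or a pool, so the spread that enters each p-value is that between these samples and may be technical. The series asks what short isolation from other mice does to this nucleus.

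Haemoglobin is a tetramer of alpha and beta chains that carries oxygen, and its mRNA persists in young red cells in the bloodstream. Brain capillaries are tubes of endothelial cells sealed by tight junctions and wrapped by pericytes, while arterioles are wrapped by contractile smooth muscle. Endothelial cells recruit pericytes through platelet-derived growth factor, and the growth of vessels is steered by vascular endothelial growth factor (VEGF) and its receptors.

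Total counts were 20897605 to 26428152 per library. At those depths 3 counts correspond to 0.114 to 0.144 CPM, the unit used here for counts scaled to a common effective library total. The habenular markers Gpr151 (396, 352, 425 and 426 CPM in group-housed replicates 1 and 2 and isolated replicates 1 and 2) and Pou4f1 (136, 129, 162 and 151 CPM) were abundant in every library. For 8 of 10 habenular markers each isolated value exceeded each group-housed value, a pattern seen in 17.4% of all tested genes. The exceptions were Nr4a2 (231, 191, 265 and 217 CPM) and Htr2c (261, 242, 253 and 214 CPM). None of the 10 markers passed the test, and the part of these differences in the vessel values was not tested. In all, 17528 genes were tested, of which 2 were called, both higher in the isolated libraries. Isolated replicate 2 had the highest ependymal transcripts and group-housed replicate 2 the highest choroid plexus transcripts, with values given below beside the vessel genes.

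No call was made for any of the 10 genes between isolated and group-housed libraries. In the edgeR quasi-likelihood test, Benjamini-Hochberg adjusted over the whole table, 0 of 10 passed at 0.05 (adjusted p = 0.9998 for each), where 0.0114% of all tested genes passed. At an unadjusted p under 0.05 the count was again 0 of 10, against 5.09% of all genes. DESeq2, limma-voom and the exact test of edgeR also called 0 of them. In 0 of 10 did both isolated libraries lie above both group-housed ones, a pattern seen in 17.4% of all genes, and in 0 of 10 did both lie below, a pattern seen in 16.3%. The 10 log2 fold changes (isolated over group-housed) ran from -0.20 to 0.24, with 4 above 0 and 6 below, and their median was -0.0035 beside 0.0033 for all tested genes.

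The highest library exceeded the lowest by a median of 1.66-fold over the 10 genes and by a median of 1.18-fold over all tested genes, which were not matched to them in level. Isolated replicate 1 was the lowest library for 7 of the 10 (24.2% of all genes) and isolated replicate 2 the highest for 6 (27.5%). Both held at once for Hba-a1, Hba-a2, Hbb-bt, Pdgfrb and Acta2, a pattern of 8.94% of all genes that was picked out after the values were seen. The 10 genes are not independent of one another, since several mark the same cells. In bulk tissue fewer cells of a type and less RNA per cell cannot be told apart.

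**Figure D1:**
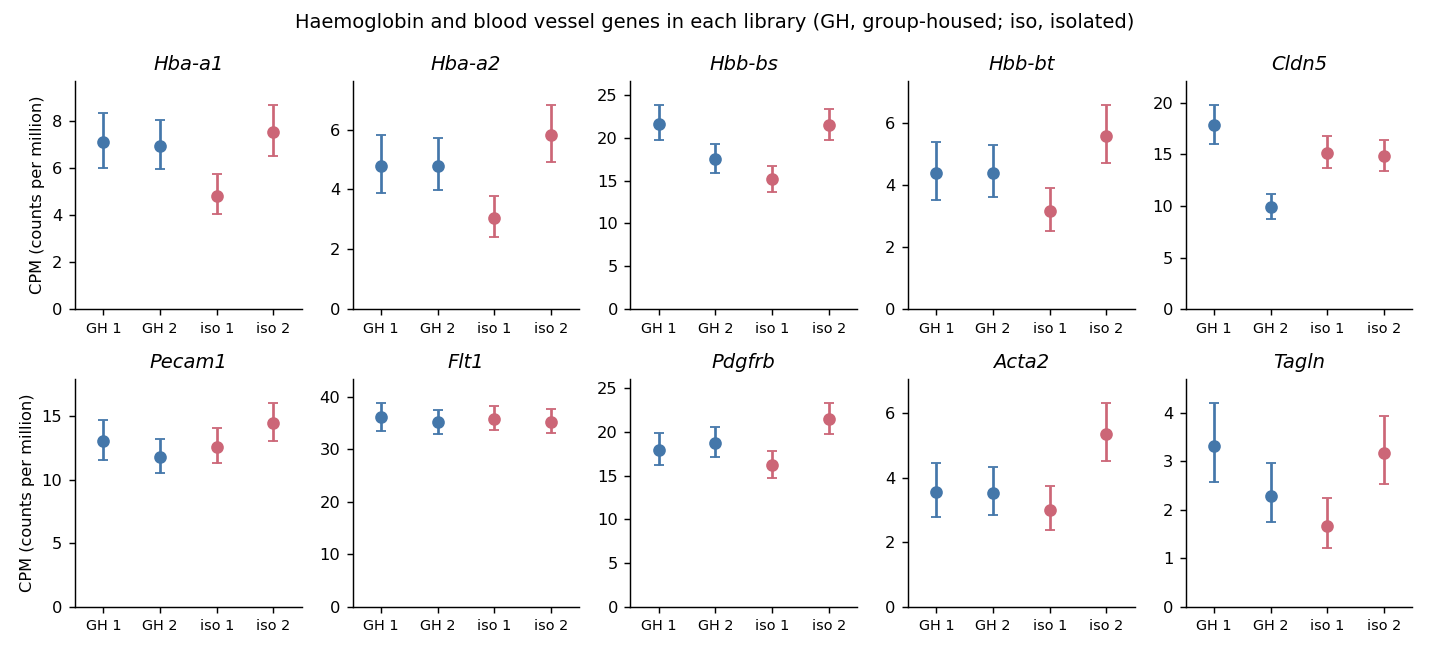
CPM of each of the 10 genes in the 4 libraries, with points for single libraries and bars for exact 95% Poisson intervals of counting error. Isolated replicate 1 (iso 1) sits at the bottom for 7 genes, Cldn5 is low in group-housed replicate 2 (GH 2), and Flt1 is level at 35.2 to 36.1 CPM.

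The haemoglobin genes come as pairs of near-identical copies, which limits how well their reads can be assigned. In GENCODE transcripts (GRCm38) the coding sequences of Hba-a1 and Hba-a2 are 429 bases long and differ at 1 base, and those of Hbb-bs and Hbb-bt are 444 bases long and also differ at 1. Counted from 1 at the A of the start codon, the differences are C381T (Hba-a1 base first) and C417T (Hbb-bs base first). The stretches around them are shown 5′ to 3′ because they are the only coding bases that separate the copies, and the differing base is in capitals.
Hba-a1: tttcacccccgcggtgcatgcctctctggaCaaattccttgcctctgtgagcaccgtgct
Hba-a2: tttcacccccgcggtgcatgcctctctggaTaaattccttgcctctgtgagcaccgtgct
Hbb-bs: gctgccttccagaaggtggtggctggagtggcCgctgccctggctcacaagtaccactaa
Hbb-bt: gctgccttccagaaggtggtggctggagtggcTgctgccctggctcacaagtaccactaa
The alpha stretches span coding positions 351 to 410 and the beta stretches 385 to 444. The identical run before the difference is 380 bases in the alpha pair and 416 in the beta pair.

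Over whole transcripts, untranslated parts included, 67.9% of all 75-base windows of Hba-a1 and 84.6% of those of Hba-a2 occur unchanged in the other copy. For Hbb-bs and Hbb-bt the shares were 51.5% and 56.6%. No source used here says how reads matching both copies were counted, so the split within a pair is uncertain and each pair was also summed. Of the other 6 genes, only Pecam1 had any 75-base window that occurs unchanged in transcripts of another gene (0.110% of its windows). Among these genes coding sequences were compared with relatives for Acta2 alone. Acta2 differs from the skeletal muscle actin Acta1 at 166 of 1134 coding bases (85.4% identity), the longest identical run being 29 bases. It differs from the cardiac actin Actc1 at 198. Actg2, Actb and Actg1, whose coding sequences differ from it in length, were not compared.

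The start regions of the alpha genes are copies as well. Upstream of the RefSeq start (GRCm38.p6) Hba-a1 and Hba-a2 are identical at 247 of 247 bases once shifted by 3 bases. Hbb-bs and Hbb-bt match at 127 of 249 (51.0%) at their best shift of 1 base. No gaps were allowed, so inserted or lost bases lower the match, and the beta value may understate how alike those 2 regions are. The alpha form is shown once, from Hba-a2, because it stands for both genes, with matches to CCAAT and CACCC in capitals.
Hba-a2 promoter, chr11:32296372-32296491, plus strand: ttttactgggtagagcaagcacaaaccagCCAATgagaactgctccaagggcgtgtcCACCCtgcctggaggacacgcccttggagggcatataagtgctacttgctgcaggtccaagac
These motifs, searched on both strands in the 250 bases before the start, are classical elements of globin promoters. All 4 haemoglobin genes held both, while 33.8% of 32851 mouse promoters held CCAAT and 52.0% held CACCC. The CCAAT match began 91 bases before the start in Hba-a2, 88 in Hba-a1 and 76 in Hbb-bs, while Hbb-bt had 3 matches, of which 2 lay on the opposite strand. The RefSeq starts lie inside the GENCODE gene bounds given below, though only slightly so for Hba-a2. Part of the bases searched therefore falls within the annotated genes, including the CCAAT match of Hba-a1 and of Hbb-bs. For Hba-a1 they were chr11:32283422-32283671, where the gene starts at 32283511. TATAAA was found in Hbb-bt alone of the 4 and in 12.4% of all promoters. Such matches describe letters and are not evidence of binding.

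Hba-a1 (ENSMUSG00000069919, chr11:32283511-32284465, plus strand), an alpha-chain gene, had 7.11 and 6.96 CPM in the group-housed libraries and 4.83 and 7.55 CPM in the isolated ones. The isolated libraries lay on either side of the group-housed pair. The group means were 7.03 ± 0.108 and 6.19 ± 1.92 CPM (SD, n = 2 each), a log2 fold change of -0.18 with a 95% interval of -0.67 to 0.30.

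Hba-a2 (ENSMUSG00000069917, chr11:32296489-32297298, plus strand), the second alpha-chain gene, had 4.77 and 4.78 CPM in the group-housed and 3.04 and 5.81 CPM in the isolated libraries. The group-housed values were nearly equal and again lay between the isolated ones. The log2 fold change was -0.11, with a 95% interval of -0.75 to 0.53.

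Hbb-bs (ENSMUSG00000052305, chr7:103826534-103828096, minus strand), the more abundant beta-chain gene, had 21.7 and 17.5 CPM in the group-housed and 15.2 and 21.5 CPM in the isolated libraries. One library of each group was high and one low, so the groups overlapped. The log2 fold change was -0.09, with a 95% interval of -0.47 to 0.29.

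Hbb-bt (ENSMUSG00000073940, chr7:103812524-103813996, minus strand), the other beta-chain gene, had 4.38 and 4.39 CPM in the group-housed and 3.16 and 5.58 CPM in the isolated libraries. Its group means, 4.39 and 4.37 CPM, were close, with all of the spread in the isolated pair. The log2 fold change was -0.0048, with a 95% interval of -0.61 to 0.60.

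Summed over the 4 genes, haemoglobin reached 37.9 and 33.7 CPM under group housing and 26.2 and 40.4 CPM after isolation. The highest library held 1.54-fold the level of the lowest, and both were isolated. Counted against the whole library the share was 0.00373% and 0.00338% under group housing and 0.00261% and 0.00413% after isolation. The exact 95% binomial interval of isolated replicate 1 (0.00242 to 0.00281%) did not reach that of any other library. Such intervals cover counting error only and not the spread between samples. Reads carry no molecular identifiers, so duplicate reads could make the intervals too narrow even for that.

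While the total moved, the make-up of the haemoglobin counts stayed in narrow ranges, which were not tested for a difference. Hba-a1 supplied 59.8, 59.3, 61.4 and 56.5% of the alpha pair (group-housed replicates 1 and 2, then isolated replicates 1 and 2, the order of all later runs of 4 values). Hbb-bs supplied 83.2, 80.0, 82.8 and 79.4% of the beta pair, and the alpha pair 31.3, 34.9, 30.0 and 33.0% of all haemoglobin counts. Within each of these 3 shares the 95% intervals of all 4 libraries overlapped, which does not show that the libraries were equal. Fitted as 1 row each, the alpha pair had a log2 fold change of -0.15 (95% interval -0.65 to 0.34) and the beta pair of -0.07 (-0.46 to 0.31), and neither passed the edgeR quasi-likelihood test (Benjamini-Hochberg adjusted p = 0.9998 for both).

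The sign of the haemoglobin differences changed with the libraries that were kept. Without isolated replicate 1 the 4 log2 fold changes were 0.10 (Hba-a1), 0.28 (Hba-a2), 0.14 (Hbb-bs) and 0.35 (Hbb-bt). Without isolated replicate 2 they were -0.54, -0.65, -0.36 and -0.47 in the same order. Leaving out group-housed replicate 1 also turned Hbb-bs (0.07) and the beta pair (0.05).

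Several other genes particular to red cells were at or near 0 counts. Of 16 further erythroid genes 15 were found in the matrix, of which 8 were tested, 5 higher and 3 lower with none passing (median log2 fold change 0.03). The membrane protein gene Rhag and the transcription factor gene Gata1 had no count in any library, and the anion exchanger gene Slc4a1 had 0, 1, 1 and 0 counts. Alas2, the first enzyme of haem synthesis in red cells, had 21 and 22 counts under group housing and 13 and 25 after isolation. At 1.02, 0.855, 0.495 and 0.943 CPM it was lowest in isolated replicate 1, as haemoglobin was, although its exons overlap those of Apex2. The most abundant gene of that list per kb, the transferrin receptor gene Tfrc (162, 172, 181 and 205 CPM), is also made by brain cells. The largest difference was that of Epb42, a red cell membrane protein gene, at 1.51, 1.13, 1.79 and 3.55 CPM (log2 fold change 1.03, Benjamini-Hochberg adjusted p = 0.855 by the edgeR quasi-likelihood test).

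Among other globins, the tissue globin Cygb had 217 and 204 CPM in the group-housed and 234 and 227 CPM in the isolated libraries, and the neuronal globin Ngb had 23.7, 24.95, 25.1 and 24.3 CPM. Neither followed the order of the haemoglobin genes across libraries. The embryonic genes Hbb-bh1, Hbb-bh2 and Hba-x had no count, and Hbb-y had 1, 1, 0 and 3. Of 8 such genes 3 were tested, 2 higher and 1 lower, and none passed. Of 10 platelet and leukocyte genes 4 were tested, 1 higher and 3 lower (median -0.13), and none passed. They included lysozyme gene Lyz2 (7.06, 5.75, 5.56 and 6.90 CPM) and platelet factor gene Pf4 (0.536, 0.816, 0.457 and 0.717 CPM).

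**Figure D2:**
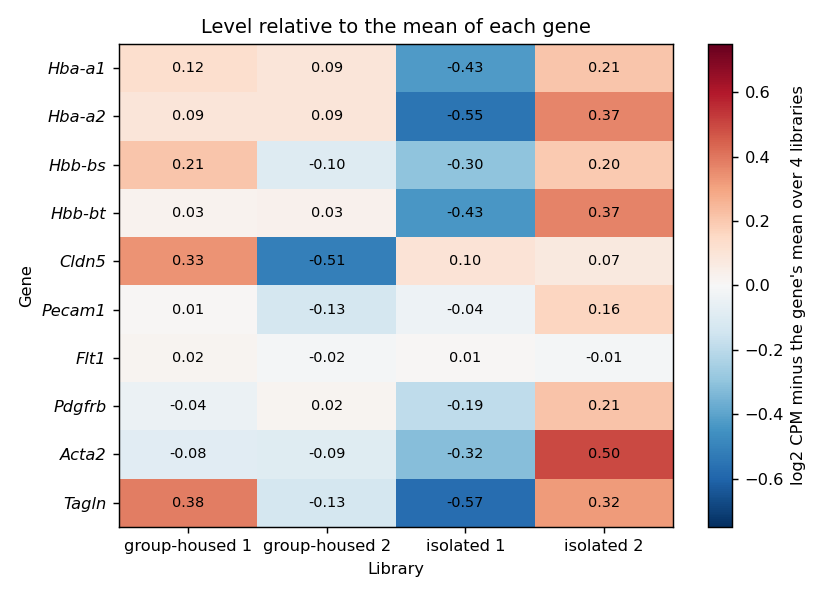
Heat map of log2 CPM minus the mean of each gene over the 4 libraries, with genes as rows, libraries as columns and the value printed in each cell. Haemoglobin rows run from -0.55 to -0.30 in isolated replicate 1, Cldn5 stands at -0.51 in group-housed replicate 2, and Flt1 stays within -0.02 to 0.02.

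Flt1, Pecam1 and Cldn5 did not share that order. Flt1 (ENSMUSG00000029648, chr5:147561604-147726011, minus strand), which encodes VEGF receptor 1, had 36.1 and 35.2 CPM in the group-housed and 35.8 and 35.3 CPM in the isolated libraries. The 4 libraries were level, the highest being 1.03-fold the lowest. The log2 fold change was -0.0023 with the narrowest 95% interval of the 10 genes, -0.17 to 0.16. The count sums all forms of the gene, including the soluble receptor.

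Pecam1 (ENSMUSG00000020717, chr11:106654217-106750628, minus strand), which encodes the endothelial adhesion molecule CD31, had 13.1 and 11.8 CPM in the group-housed and 12.6 and 14.5 CPM in the isolated libraries. The groups overlapped, with isolated replicate 2 highest. The log2 fold change was 0.13 (95% interval -0.16 to 0.41), and it stayed above 0 without each library in turn (0.02 to 0.22).

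Cldn5 (ENSMUSG00000041378, chr16:18776847-18778262, plus strand, 1 exon), the main claudin of the blood-brain barrier, had 17.8 and 9.87 CPM in the group-housed and 15.2 and 14.9 CPM in the isolated libraries. The isolated libraries were alike and lay between the group-housed ones, of which replicate 2 was low. Group means were 13.8 ± 5.62 and 15.0 ± 0.224 CPM (SD, n = 2 each), and the log2 fold change was 0.13 (95% interval -0.39 to 0.65). Leaving out group-housed replicate 1 gave 0.61, and leaving out group-housed replicate 2 gave -0.26.

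Relative to Flt1 in the same library, Cldn5 was low in group-housed replicate 2. Flt1 was level across the libraries, so this share largely restates the Cldn5 level and is not separate support. As a share of Cldn5 plus Flt1 counts, Cldn5 made up 33.1% (exact 95% interval 30.3 to 35.9%) and 21.9% (19.6 to 24.4%) under group housing. In the isolated libraries it was 29.8% (27.3 to 32.3%) and 29.6% (27.2 to 32.2%). The interval of group-housed replicate 2 met none of the others. As a share of Cldn5 plus Pecam1 counts, Cldn5 made up 57.7, 45.5, 54.7 and 50.6%, and there the interval of group-housed replicate 2 (41.3 to 49.8%) overlapped that of isolated replicate 2 (47.1 to 54.2%). The corresponding shares of Pecam1 in Pecam1 plus Flt1 were 27, 25, 26 and 29%, with overlapping intervals. Group-housed replicate 2 also had the highest choroid plexus transcripts (the transthyretin gene Ttr at 102 CPM, against 3.41, 22.0 and 26.9 CPM elsewhere), and their part in the Cldn5 value was not tested.

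A longer list of 30 endothelial genes was tested throughout, with 16 higher, 14 lower and none passing (median log2 fold change 0.03, range -0.38 to 0.39). Isolated replicate 2 was highest for 20 of them and isolated replicate 1 lowest for 17, while group-housed replicate 2 was lowest for 3. The median centred log2 levels of the list were -0.05, 0.05, -0.14 and 0.20, so that its lowest and highest libraries were those of haemoglobin. The glucose transporter gene Slc2a1 (109, 128, 110 and 118 CPM) and Itm2a (31.2, 34.2, 29.1 and 35.0 CPM) were the most abundant per kb. Erg, an endothelial transcription factor gene, had the largest difference, at 2.53, 2.49, 2.74 and 3.85 CPM (log2 fold change 0.39, 95% interval -0.15 to 0.94). Cdh5, which encodes VE-cadherin, had 7.11, 7.50, 5.40 and 7.85 CPM. It was lowest in isolated replicate 1 and highest in isolated replicate 2, unlike the level profile of Flt1.

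Junction genes other than Cldn5 gave 4 higher and 7 lower of 11 tested, none passing. The most abundant was Cldn11, a claudin of myelin, at 465, 455, 348 and 435 CPM (log2 fold change -0.23, Benjamini-Hochberg adjusted p = 0.974 by the edgeR quasi-likelihood test). Jam3 had 81.6, 76.6, 69.9 and 80.3 CPM, and the tricellular junction gene Marveld2 1.61, 2.02, 2.36 and 2.15 CPM.

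Ligands and receptors around Flt1 were likewise without a call, 5 being higher and 4 lower of 9. The ligand Vegfa had 89.2 and 86.2 CPM in the group-housed and 94.8 and 87.8 CPM in the isolated libraries. Vegfb, a ligand of Flt1, had 63.8, 52.9, 54.2 and 51.2 CPM. The main signalling receptor Kdr had 9.74, 7.07, 6.66 and 9.77 CPM, with 1 high and 1 low library in each group. The co-receptor Nrp2, which neurons also make, had 247 and 231 CPM in the group-housed and 307 and 278 CPM in the isolated libraries. Both isolated values were above both group-housed ones, with a log2 fold change of 0.29 (95% interval 0.12 to 0.46) and a Benjamini-Hochberg adjusted p of 0.570 by the edgeR quasi-likelihood test.

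Of 12 genes of the hypoxia response 6 were higher and 6 lower (median -0.0024), none passing. The glycolytic genes Pgk1 (414, 394, 392 and 397 CPM) and Ldha (130, 136, 141 and 131 CPM) were level. Car9, a carbonic anhydrase gene, had 1.07, 1.17, 1.26 and 3.59 CPM, with isolated replicate 2 apart from the rest (log2 fold change 1.11, Benjamini-Hochberg adjusted p = 0.947 by the edgeR quasi-likelihood test). Of 12 angiopoietin and TGF-beta pathway genes 8 were higher and 4 lower, none passing, and the endothelial receptor gene Tie1 had the largest difference (5.55, 7.42, 7.38 and 8.30 CPM, log2 fold change 0.27). The growth factor gene Tgfb2 (36.5, 38.6, 41.0 and 37.7 CPM) and the receptor gene Tgfbr1 (33.9, 34.8, 29.9 and 32.2 CPM) were its most abundant genes per kb. Of 11 arterial and venous genes 5 were higher and 6 lower, none passing. These included the venous regulator Nr2f2 (43.9, 36.3, 42.4 and 35.2 CPM), the chemokine receptor gene Ackr1, whose exons overlap those of Cadm3 (20.5, 18.5, 19.0 and 17.2 CPM), and the arterial marker Gkn3 (0.974, 1.32, 1.33 and 2.15 CPM).

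**Figure D3:**
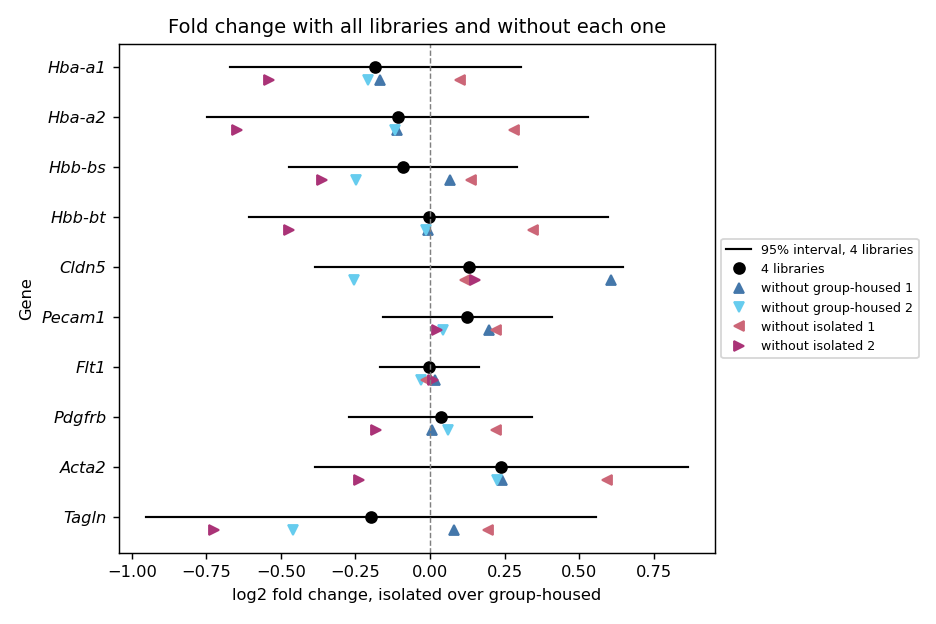
Log2 fold change of each gene, isolated over group-housed, with all 4 libraries (black, with its 95% interval) and without each library in turn (triangles). Every black interval spans 0, and for the haemoglobin genes the fits without isolated replicate 1 and without isolated replicate 2 fall on opposite sides of 0.

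Pdgfrb (ENSMUSG00000024620, chr18:61045150-61085061, plus strand), the receptor through which pericytes answer platelet-derived growth factor, had 18.0 and 18.8 CPM in the group-housed and 16.2 and 21.5 CPM in the isolated libraries. The group-housed values lay between the isolated ones, the order seen for haemoglobin. Group means were 18.4 ± 0.569 and 18.8 ± 3.72 CPM (SD, n = 2 each), with a log2 fold change of 0.04 (95% interval -0.27 to 0.34). Leaving out isolated replicate 1 gave 0.22, and leaving out isolated replicate 2 gave -0.18.

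Other pericyte genes did not all follow it. The pericyte regulator Rgs5 had 59.7, 68.1, 61.9 and 64.3 CPM, and the channel subunit genes Kcnj8 (4.77, 5.32, 4.53 and 4.45 CPM) and Abcc9 (7.79, 10.4, 8.64 and 8.53 CPM) were highest in group-housed replicate 2. Of 14 pericyte genes 7 were higher and 7 lower, none passing (median 0.03), and their median centred log2 levels were -0.03, 0.02, -0.05 and 0.09. Isolated replicate 2 was highest for 9 of the 14. The lowest library was isolated replicate 1 for 4, group-housed replicate 1 for 5 and group-housed replicate 2 for 4. Vitronectin (Vtn) had 46.4, 43.0, 40.8 and 47.3 CPM. Zic1, which neurons also make, was the most abundant per kb (526, 490, 554 and 558 CPM), and the aminopeptidase gene Anpep had the largest log2 fold change, 0.51 (95% interval -0.11 to 1.13). Of the 5 PDGF ligands and receptors besides Pdgfrb 1 was higher and 4 lower, none passing. Pdgfb, the ligand of Pdgfrb, had 7.40, 10.7, 8.45 and 7.58 CPM. Pdgfa (44.0, 46.4, 39.2 and 38.9 CPM) was below both group-housed values in both isolated libraries (log2 fold change -0.21, Benjamini-Hochberg adjusted p = 0.840 by the edgeR quasi-likelihood test), and Pdgfra, a marker of oligodendrocyte precursors, had 96.4, 104, 85.7 and 99.7 CPM.

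Acta2 (ENSMUSG00000035783, chr19:34241090-34255590, minus strand), the smooth muscle actin, had 3.55 and 3.54 CPM in the group-housed and 3.01 and 5.36 CPM in the isolated libraries. The value in isolated replicate 2 was the highest and that of isolated replicate 1 the lowest. The group means were 3.55 ± 0.0127 and 4.18 ± 1.66 CPM (SD, n = 2 each), and the log2 fold change was 0.24 with a 95% interval of -0.39 to 0.86. Without isolated replicate 1 the value was 0.59, and with replicate 2 left out instead it was -0.24.

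Tagln (ENSMUSG00000032085, chr9:45929619-45936058, minus strand), which encodes the actin-binding protein transgelin, had 3.31 and 2.29 CPM in the group-housed and 1.67 and 3.17 CPM in the isolated libraries. One library of each group was high, and isolated replicate 1 was lowest. The log2 fold change was -0.20 (95% interval -0.95 to 0.56), the widest interval of the 10 genes, and it rested on 44 to 84 counts per library. The value was above 0 without group-housed replicate 1 (0.08) or isolated replicate 1 (0.19). Of its 1988 exon bases 1241 overlap the antisense gene Gm48529 and 108 overlap Pcsk7, both on the plus strand. No source used here gives the strand setting, so its counts are uncertain to that extent.

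Acta2 made up 51.8, 60.7, 64.2 and 62.8% of the counts of Acta2 plus Tagln, with overlapping intervals. Among 15 further smooth muscle genes 13 were tested, 7 higher and 6 lower with none passing. Isolated replicate 1 was lowest for 8 of the 13 and isolated replicate 2 highest for 6. Summed over the 15 genes the values were 241, 254, 229 and 216 CPM, lowest in isolated replicate 2. The sum is weighted to the genes with most counts, Tpm1 and Synpo2, which were both lowest in that library. Synpo2 had 29.1 CPM there, beside 50.3 CPM in isolated replicate 1 and 65.2 CPM in group-housed replicate 2 (log2 fold change -0.54). The sum is therefore no measure of the list as a whole. Taken gene by gene, the median centred log2 levels of the 13 tested genes were -0.06, 0.03, -0.18 and 0.12, with isolated replicate 1 lowest and isolated replicate 2 highest. The smooth muscle myosin Myh11 followed Acta2, at 3.46, 3.61, 2.89 and 5.58 CPM. The myosin light chain gene Myl9 (7.94, 8.16, 7.0 and 10.4 CPM) had the same lowest and highest library. Cnn1, which encodes calponin, was the largest difference of the list at 0.438, 1.01, 1.33 and 1.89 CPM, from 9, 26, 35 and 50 counts (log2 fold change 1.10, Benjamini-Hochberg adjusted p = 0.863 by the edgeR quasi-likelihood test). The tropomyosin gene Tpm1, which many cells make, had 118, 116, 113 and 109 CPM.

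Other actins matched Acta2 only in part. The cytoplasmic actins Actb (652, 666, 593 and 648 CPM) and Actg1 (445, 452, 409 and 430 CPM) had lower values in both isolated libraries, with log2 fold changes of -0.09 and -0.10. Their lowest library was isolated replicate 1, as for Acta2, but their highest was group-housed replicate 2. Acta1 had 1.46, 1.36, 1.83 and 1.32 CPM, and Actc1 had no count. None of the 3 tested actins passed. The serum response factor drives smooth muscle genes with myocardin. A list of its targets, which also held Srf, Myocd, Mrtfa and Mrtfb, gave 7 higher and 4 lower of 11 tested, none passing. Within that list the factor gene Srf had 33.0, 30.4, 30.6 and 34.1 CPM.

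Per kb of exon, Hbb-bs had the highest mean level at 24.7 CPM per kb. It was followed by Cldn5 (10.2), Hba-a1 (8.14), Hba-a2 (6.90), Hbb-bt (6.23), Pdgfrb (3.40), Flt1 (2.64), Pecam1 (2.09), Acta2 (1.76) and Tagln (1.31). Neighbours whose library ranges overlapped were Cldn5 and Hba-a1, Hba-a1 and Hba-a2, Hba-a2 and Hbb-bt, Pecam1 and Acta2, and Acta2 and Tagln. The ranges of Hbb-bs and Cldn5, Hbb-bt and Pdgfrb, Pdgfrb and Flt1, and Flt1 and Pecam1 did not meet. The within-pair order of the haemoglobin copies is subject to the shared reads described above.

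Neighbouring tissues varied between the same libraries. Vessel fibroblast and meningeal genes (12 tested, 6 higher, 6 lower, none passing) had median centred log2 levels of -0.06, 0.08, -0.24 and 0.21. Isolated replicate 1 was lowest and isolated replicate 2 highest, as for haemoglobin (0.11, 0.06, -0.43 and 0.29) and the medians of the endothelial, pericyte and smooth muscle lists. In the pericyte list, however, isolated replicate 1 was lowest for only 4 of 14 genes. Among the fibroblast and meningeal genes Dcn, a collagen-binding proteoglycan gene, had 13.4, 15.9, 10.8 and 15.9 CPM. The collagen gene Col3a1 had 3.26, 3.85, 3.35 and 6.38 CPM, and Nnat, which neurons also make, 448, 433, 455 and 473 CPM.

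Ependymal genes were all higher in fold change (9 of 9 tested, median 0.79, none passing), and each was highest in isolated replicate 2. Summed they had 83.7, 79.9, 87.9 and 179 CPM, and the ciliary regulator Foxj1 had 25.9, 22.4, 22.8 and 44.8 CPM. Tmem212 had 4.43, 4.66, 4.87 and 10.9 CPM, and the dynein light chain gene Dynlrb2 1.56, 1.36, 1.83 and 5.58 CPM. The list had no low value in isolated replicate 1 such as haemoglobin had.

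Choroid plexus genes (10 tested, 3 higher, 7 lower, none passing) summed to 500, 601, 432 and 459 CPM, most of it from Enpp2 (445, 438, 355 and 372 CPM), which oligodendrocytes also make. Taken gene by gene, their median centred log2 levels were -0.42, 0.44, -0.13 and 0.03, highest in group-housed replicate 2. The bicarbonate transporter gene Slc4a5, for example, had 0.390, 1.71, 0.571 and 0.377 CPM. Of 5 perivascular macrophage genes tested, 1 was higher and 4 lower, none passing, and their median was highest in group-housed replicate 2 (0.48, against -0.16 to -0.11). The scavenger receptor gene Cd163 had 1.56, 3.19, 1.67 and 1.55 CPM, Cbr2 0.974, 1.01, 1.10 and 1.32 CPM, and the transglutaminase gene F13a1 5.84, 6.53, 5.44 and 6.49 CPM. The part of these neighbouring tissues in the levels of the vessel and haemoglobin genes was not tested.

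**Figure D4:**
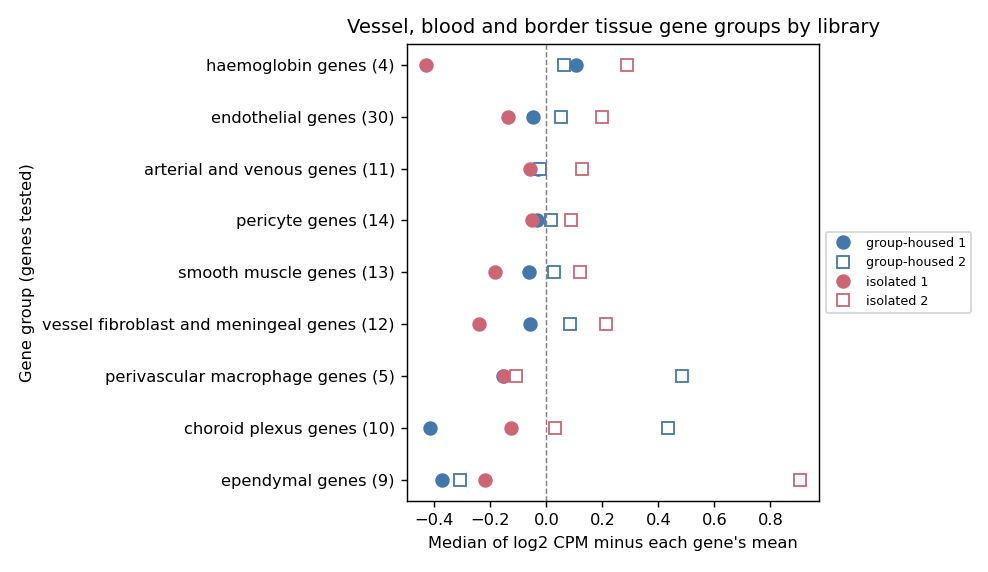
Median over each gene list of log2 CPM minus the mean of each gene, by library, with the number of genes tested in brackets. Haemoglobin (-0.43 to 0.29), endothelial, smooth muscle and fibroblast genes (-0.24 to 0.21) put isolated replicate 1 lowest and isolated replicate 2 highest. Pericyte genes have that order by a small margin at the low end (-0.05, beside -0.03 in group-housed replicate 1). Ependymal genes set isolated replicate 2 apart at 0.91, and choroid plexus genes are highest in group-housed replicate 2 at 0.44.

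Profiles most like those of the vessel and haemoglobin genes were looked for among 12227 tested genes with a mean of at least 5 CPM, by the Euclidean distance between centred log2 CPM over the 4 libraries. Nearest to the median profile of the haemoglobin genes were Pigz (distance 0.0623, with 13.6, 13.8, 9.36 and 15.3 CPM), Cavin2 (0.0980), Arpc1b (0.106), Myoc (0.116) and Col1a1 (0.120). Nearest to Pdgfrb were Reep4 (0.0238), Lpp (0.0264), A930005H10Rik, Mvp and Gfpt2. The genes closest to the median profile of Acta2 and Tagln were farther off, led by Olfml2b (0.154) and Serpina3n (0.171) and followed by Ccdc3, Wfdc1 and Cd93. The median profile of Cldn5, Pecam1 and Flt1 was nearly flat (0.02, -0.13, 0.01 and 0.07), although Cldn5 alone ran from -0.51 to 0.33. Nearest to that median were 1700003E16Rik, Tmem39a, Scly, Ints4 and Sik1. These likenesses rest on 4 libraries and were not tested.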

How the data were processed

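RNA from the lateral habenula was extracted with Trizol and sequenced from stranded poly(A) libraries (Illumina TruSeq Stranded mRNA LT), per the labels' protocols. The authors deposited raw read counts per Ensembl gene, used for every test, and a normalised signal per library, which equals each deposited count times a library constant (0.0387 to 0.0499) and served only as an alternative scaling. Per the submitters' processing notes, the build was GRCm38 and the tools were TopHat2 2.1.1, HTSeq, CASAVA and edgeR, with no role stated for any. No source used here gives the annotation release, strand setting or read length.

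Symbols, coordinates and exon overlaps came from a GENCODE annotation of GRCm38, which named 53360 of 53465 identifiers, and promoters from RefSeq (7 of the 10 genes matched). Identifiers without a symbol held 0.0253 to 0.0281% of counts. Libraries were compared with the 2-sided quasi-likelihood test of edgeR 4.0.16 (R 4.3.3) on TMM-scaled counts after filterByExpr, with no covariate and Benjamini-Hochberg adjustment at 0.05. The biological coefficient of variation was 7.20%, with 2 residual and 6.55 prior degrees of freedom. Intervals use a standard error of the log2 fold change over the square root of F. Centred levels used a prior count of 2. Scripts were tested on simulated data. Alternatives used limma 3.58.1, DESeq2 1.42.0, other scalings and filters, a replicate block, and each library left out.

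All 10 genes are named. From each list the 2 most abundant tested genes per kb and the gene with the largest fold change are named, plus the 5 genes nearest each profile. Others named (for example Cdh5, Myh11, Kdr, Rgs5 and Pdgfb) were added after their values were seen. The genes and lists were chosen with earlier results of these data known. Some items of the lists are not reported here.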

Additional observations from a re-analysis of the deposited data

How the results depend on the processing

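None of the 10 genes was called wherever it was tested over the 15 settings, and in 164 alternative fits of the genes and globin pairs the smallest adjusted p was 0.311 (alpha pair without isolated replicate 2, edgeR quasi-likelihood test, Benjamini-Hochberg adjusted). The count of all genes called, 2 in the main test, was 15 with no filter on low counts, 52 with DESeq2, 82 with the exact test of edgeR and 64 with the replicate number as a block, and 1 to 221 (the latter without isolated replicate 1) when 1 library was left out. Cause was not tested. The replicate block changed no call of the 10 genes. Same-numbered libraries deviated from their group means with a correlation of 0.14 across genes, in only 2 pairs, and no label ties them, so the samples share only a number. Without 1 library the log2 fold change ranged from -0.54 to 0.10 for Hba-a1, -0.65 to 0.28 for Hba-a2, -0.36 to 0.14 for Hbb-bs, -0.47 to 0.35 for Hbb-bt, -0.26 to 0.61 for Cldn5, -0.0301 to 0.0163 for Flt1, -0.18 to 0.22 for Pdgfrb, -0.24 to 0.59 for Acta2 and -0.72 to 0.19 for Tagln. It was -0.58 to 0.18 for the alpha pair and -0.38 to 0.18 for the beta pair. A lone library in such a fit is assumed to vary like the others. With library totals alone the sign turned for Hbb-bt (0.018) and Flt1 (0.018), and for Flt1 also with a minimum mean of 5 CPM (0.0026) and with the authors' constants (0.0016), an alternative added after seeing the data. At that minimum Acta2, Tagln, Hba-a2 and Hbb-bt were not tested. Depth limits Tagln, Acta2, Hba-a2 and Hbb-bt most, with at most 154 counts in a library.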
